A study of Mus musculus with 12 samples.

Results

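The comparison described here set GLAST-selected white matter cells of wild-type mice after 12 weeks of cuprizone against the same selection from wild-type mice at 0 weeks. It rests on 6 of the 12 arrays in the series, 3 in each group, chosen by their titles, and on 19505 genes that had 1 symbol each. Both groups were wild-type C57BL/6 mice, the labels put the start of feeding at 8 to 12 weeks of age, and the 12-week group received a powdered diet with 0.2% (w/w) cuprizone. The other arrays were from wild-type mice after 3 weeks of the same diet and from GnT-IX-deficient C57BL/6 mice after 12 weeks, 3 each, and they entered the fit to share its estimate of the spread. Every group went through papain dissociation of brain white matter, blocking of Fc receptors and selection on magnetic beads by GLAST, an astrocyte glutamate transporter whose gene is Slc1a3. The age at which the 0-week mice were sampled is not given in the labels, and no group labelled as untreated for 12 weeks was analysed here, so a difference in age, if there was one, cannot be told apart from weeks of diet. The labels name a pair of RNA kits without saying which sample had which, so kit and group cannot be told apart either. The titles call the 3 samples of a group biological replicates, and whether 1 array holds cells of 1 mouse or of several is not given.

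Cuprizone is a copper chelator that kills mature oligodendrocytes and strips myelin from white matter, and feeding it for many weeks keeps the tissue demyelinated for longer than a short course does. Microglia and astrocytes respond to the loss: microglia proliferate, take up myelin debris and store its lipids, and astrocytes raise intermediate filaments and secreted proteins. GLAST lies on the surface of astrocytes and of their progenitors, and it has been reported on activated microglia too.

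Values are log2 array levels, so a difference of 1 is a 2-fold change, and triplets of values below are in the order of replicates 1, 2 and 3. Across all genes, arrays correlated with r of 0.980 to 0.985 within the 0-week group and of 0.979 to 0.982 within the 12-week group, and with r of 0.955 to 0.973 between them. The medians of the 12 arrays lay between 5.38 and 5.45 and their lower quartiles between 3.73 and 3.85, and a gene is called dim below where its 0-week mean was under the lower quartile. In such genes the size of a rise is uncertain.

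The labelled cell type was checked against marker genes first. None of 12 astrocyte markers was dim at either time, and their mean level was 10.4, 10.2 and 10.1 in the 0-week arrays and 9.78, 9.34 and 9.90 in the 12-week arrays. The selection also held other cells. None of 9 mature oligodendrocyte markers was dim at either time, and they had means of 9.91, 10.1 and 9.73 at 0 weeks and of 9.57, 9.08 and 8.88 at 12 weeks. Markers of microglia and macrophages moved most: their mean over 15 genes was 5.79, 5.20 and 5.44 at 0 weeks, 8.82, 6.97 and 6.57 at 3 weeks and 7.91, 9.0 and 8.14 at 12 weeks. Every 12-week array lay above every 0-week array, and among the 12-week arrays replicate 2 stood highest.

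**Figure D1:**
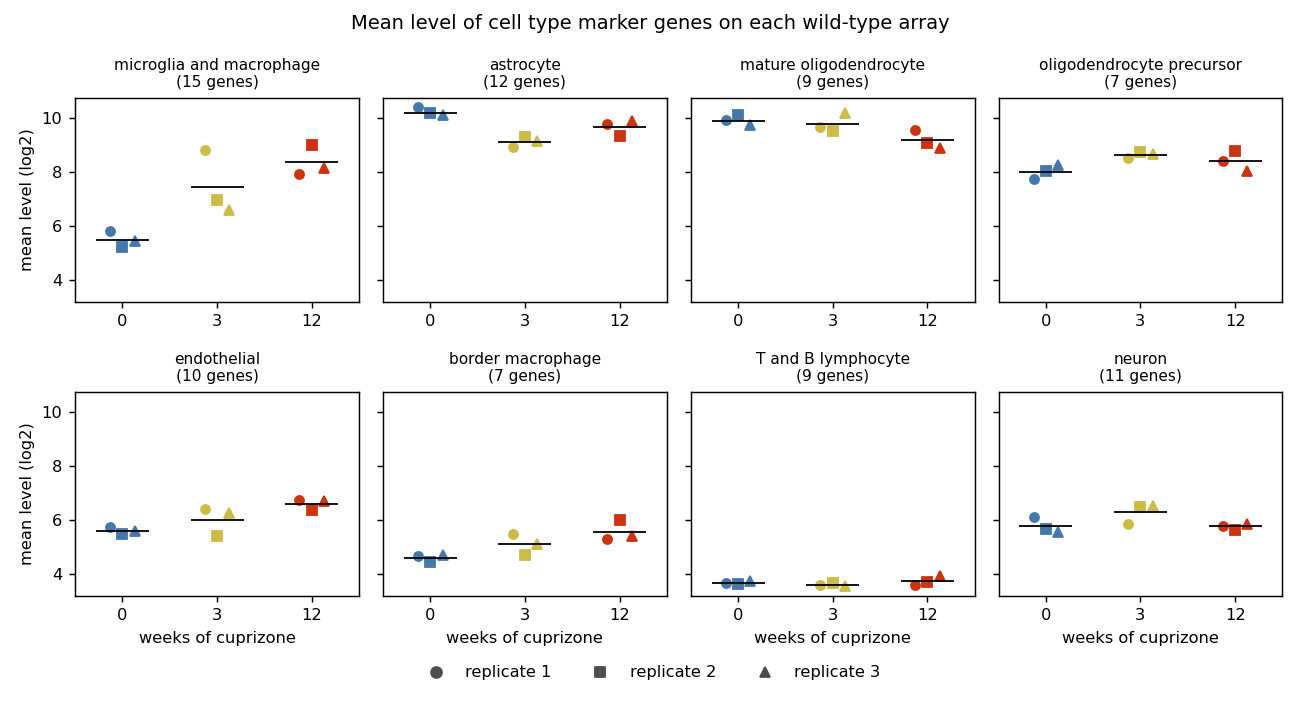
Mean log2 level of 8 cell type marker lists on each wild-type array (vertical axis) against weeks of cuprizone (horizontal axis). Each symbol is 1 array, its shape gives the replicate number, the horizontal line is the mean of the 3 arrays, and the number of genes stands above each panel. The microglial means go from between 5.20 and 5.79 at 0 weeks to between 7.91 and 9.0 at 12 weeks, while lymphocyte markers stay between 3.53 and 3.92.

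Of the 15 microglial and macrophage markers, 13 rose between 0 and 12 weeks, where limma called 412 of all genes higher (2.11%). The median of the list was a log2 difference of 2.99, against -0.0133 over all genes. The pair that did not pass, Tmem119 and P2ry12, are markers of homeostatic microglia. Other such markers did pass, among them Cx3cr1 (1.82), Siglech (2.15) and Gpr34 (2.43). Tmem119 stood at 6.53, 7.27 and 6.30 after 12 weeks against 6.42, 6.10 and 6.04 (0.51, adjusted p = 0.534), and P2ry12, the purinergic receptor of resting microglia, was 1.93 higher (adjusted p = 0.0905). Of 7 border macrophage markers 1 rose, Ms4a7, from 4.41, 3.67 and 4.55 to 6.70, 8.61 and 7.94. In limma none of 9 monocyte and neutrophil markers and none of 9 lymphocyte markers passed the threshold (1 and 0 at an unadjusted p under 0.05), and at 12 weeks 7 and 5 of them lay below the lower quartile. Endothelial markers rose in 4 of 10 cases, Cldn5 (1.61), Ly6c1 (1.60), Cdh5 (1.41) and Eng (1.05), and with any 1 of the 6 arrays left out none of these 4 passed. No marker of oligodendrocyte precursors or pericytes passed (limma, 3 of each list at an unadjusted p under 0.05), none of fibroblasts or the circadian clock (1 of each), and none of ependyma, choroid plexus, neurons or the sex chromosomes (0 of each). In a bulk sample, more cells of a type and more RNA per cell cannot be told apart, and this holds for every gene below. The microglial count was between 7, without replicate 2 of the 12-week group, and 13 when single arrays were left out, and leaving out the first or second 0-week array gave 9.

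The calls came to 514 of 19505 genes (2.64%), of which 412 were higher (2.11%) and 102 lower (0.523%). Counts of list and family members below stand against these shares over all genes. Counts of positive or negative differences stand against an all-gene median of -0.0133. The rises were larger than the falls: the median rise was 1.35 and the largest 5.93, while the median fall was 0.925 and the largest 1.75 in size. A change of at least 1 was seen in 314 of the rises and 41 of the falls, and a change of at least 2 in 101 rises and 0 falls. The rises started from a median level of 5.35 and reached 7.13, and 50 of them were dim at 0 weeks. The falls went from a median of 8.14 to 7.01, and 1 of them was dim. The groups did not overlap in 4048 of all genes (20.8%) and in all called genes but a pair that fell, Abca2 (-1.53) and Fam83d (-1.75), which are named here after their values were seen.

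The count of calls depended on single arrays. It was 77 without replicate 2 of the 12-week group and 276 without its replicate 3, and it was 105 and 144 without replicates 2 and 1 of the 0-week group. A gene is described below as held where it passed in all 6 fits that left out 1 of these arrays, which was so for 40 of the 88 rises and 1 of the 24 falls named by the rule in the methods. Of the 412 rises, 314 (76.2%) had their highest 12-week value in replicate 2, as all 15 microglial markers did, against 30.9% of all genes. With the further condition that the highest 3-week value was in replicate 1, as it was for those markers, the share was 283 of 412 (68.7%) against 12.1% of all genes. The part of the microglial signal in these rises was not tested.

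**Figure D2:**
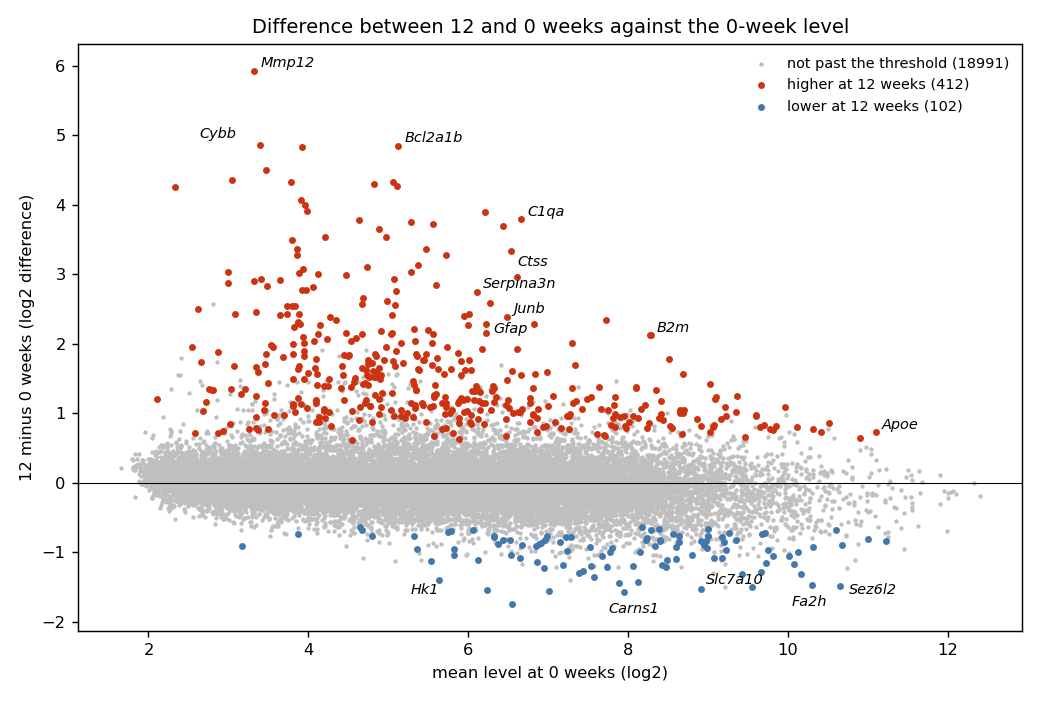
Log2 difference between 12 and 0 weeks (vertical axis) against the mean log2 level at 0 weeks (horizontal axis) for 19505 genes, with 412 higher genes in red, 102 lower genes in blue and the rest in grey. The largest rises sit at low 0-week levels, led by Mmp12 at 5.93, and no fall exceeds 1.75 in size.

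The 15 largest rises were genes of macrophages and microglia. Mmp12, which encodes macrophage elastase, stood at 2.69, 3.38 and 3.89 at 0 weeks and at 9.09, 9.81 and 8.85 at 12 weeks, a rise of 5.93 (SE 0.697, adjusted p = 0.000726). Cybb, the catalytic subunit of the phagocyte NADPH oxidase, went from 3.31, 3.28 and 3.59 to 7.72, 8.87 and 8.16, a rise of 4.86 (SE 0.452) with the smallest adjusted p of all genes, 0.000333. Ccl3, a chemokine gene, went from 3.35, 3.67 and 3.41 to 7.33, 8.60 and 7.99. In each of these genes the groups lay several units apart and replicate 2 was the highest 12-week array. The Bcl2a1 genes encode a relative of BCL2 that keeps myeloid cells alive, and Bcl2a1b (4.85), Bcl2a1a (4.84) and Bcl2a1d (4.30) rose alike, with Bcl2a1c at 1.34. Their sequences are so alike that a probe can read several of them, which makes each value uncertain. The others were Mpeg1 (4.36), a pore protein of macrophages, C3ar1 (4.33), Tyrobp (4.33), Ly86 (4.27), Aif1 (4.25), Lyz2 (4.06), Il1b (3.99), Cd14 (3.91) and Fcgr3 (3.90). Aif1, which encodes the microglial protein IBA1, was at 2.35, 2.34 and 2.32 at 0 weeks and at 5.68, 7.60 and 6.48 at 12 weeks, and with the second 12-week array left out it no longer passed, while the other 14 held. Mmp12, Cybb, Ccl3, Mpeg1 and Aif1 were dim at 0 weeks.

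**Figure D3:**
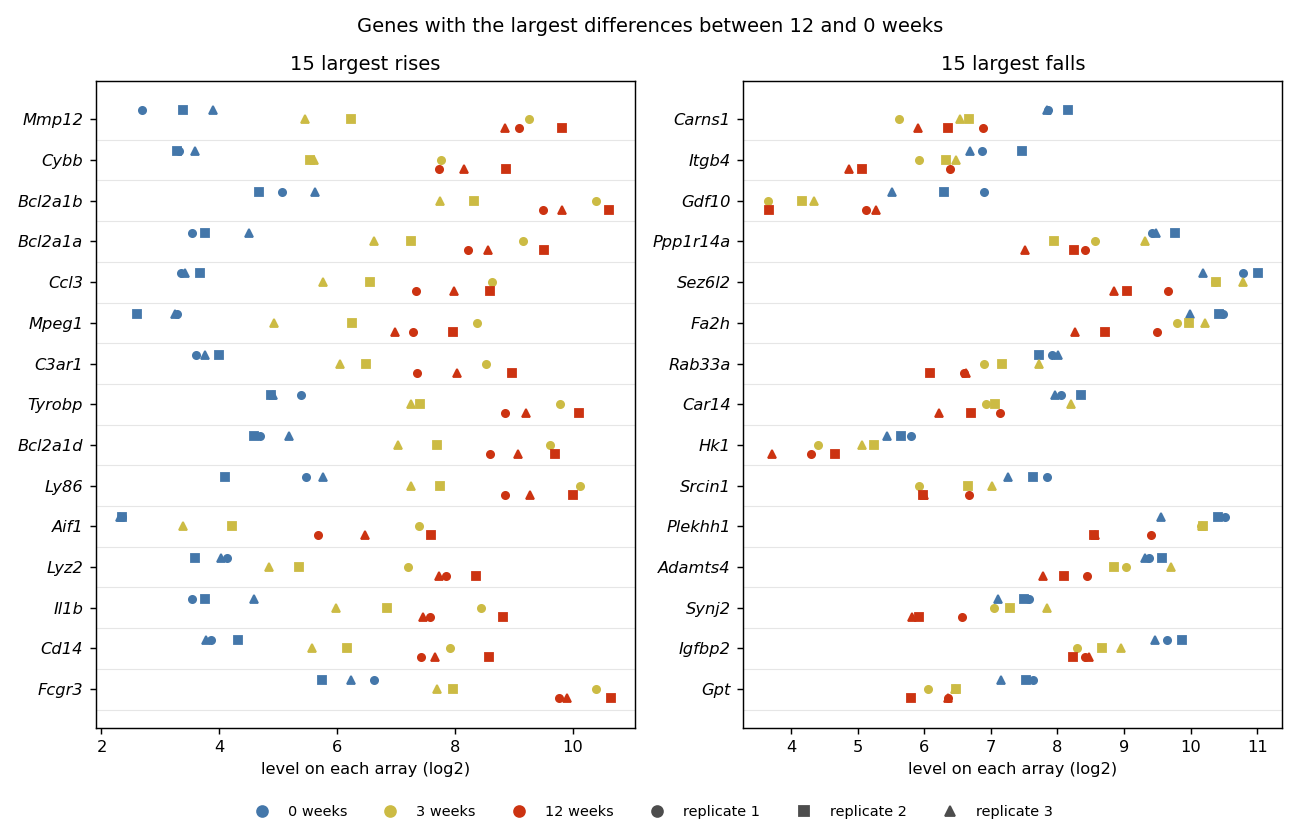
Log2 level on each array (horizontal axis) of the 15 genes with the largest rises (left) and the 15 with the largest falls (right) among called genes whose groups did not overlap. Blue, yellow and red mark 0, 3 and 12 weeks, and the symbol gives the replicate; Mmp12 goes from between 2.69 and 3.89 to between 8.85 and 9.81, and Carns1 from between 7.84 and 8.16 to between 5.91 and 6.88.

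The promoters of the 5 largest rises are shown because the transcription factor genes that rose with them, described further on, include Spi1 and members of the AP-1 group. Spi1 encodes PU.1, the lineage factor of macrophages and microglia, which binds a purine-rich core written here as GAGGAAG. The AP-1 motif was searched as TGANTCA, with any base at its centre. AP-1 dimers of FOS and JUN proteins mainly bind the forms with C or G there, so the search was looser than their site. Sequences are from RefSeq on GRCm38.p6, run 5′ to 3′ from 250 bases before to 50 after the first listed start of each gene, and are printed with either motif on either strand in capitals.
Mmp12, chr9:7344147-7344446, plus strand: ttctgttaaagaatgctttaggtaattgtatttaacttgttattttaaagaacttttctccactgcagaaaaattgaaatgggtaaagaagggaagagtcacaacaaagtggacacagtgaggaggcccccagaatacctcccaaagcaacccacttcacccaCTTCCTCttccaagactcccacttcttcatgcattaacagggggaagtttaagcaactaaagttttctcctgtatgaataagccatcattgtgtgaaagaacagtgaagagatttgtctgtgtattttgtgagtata
Cybb, chrX:9469275-9469574, minus strand: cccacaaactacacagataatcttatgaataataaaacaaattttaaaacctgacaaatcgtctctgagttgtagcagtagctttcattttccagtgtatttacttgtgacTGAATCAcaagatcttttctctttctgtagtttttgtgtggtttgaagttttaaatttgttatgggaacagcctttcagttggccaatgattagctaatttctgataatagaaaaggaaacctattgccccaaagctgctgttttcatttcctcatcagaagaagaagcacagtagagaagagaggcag
Bcl2a1b, chr9:89199023-89199322, plus strand: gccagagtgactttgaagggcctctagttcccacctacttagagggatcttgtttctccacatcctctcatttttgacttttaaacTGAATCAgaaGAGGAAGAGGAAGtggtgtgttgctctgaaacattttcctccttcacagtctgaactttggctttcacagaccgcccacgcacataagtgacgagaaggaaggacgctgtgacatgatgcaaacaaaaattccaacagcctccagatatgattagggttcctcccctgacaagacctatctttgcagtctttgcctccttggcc
Bcl2a1a, chr9:88956670-88956969, plus strand: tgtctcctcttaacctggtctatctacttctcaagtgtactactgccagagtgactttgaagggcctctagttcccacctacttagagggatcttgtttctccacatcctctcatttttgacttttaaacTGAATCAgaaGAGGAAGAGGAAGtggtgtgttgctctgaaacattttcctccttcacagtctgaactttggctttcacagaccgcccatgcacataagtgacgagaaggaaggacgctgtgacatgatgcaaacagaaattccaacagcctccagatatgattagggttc
Ccl3, chr11:83649329-83649628, minus strand: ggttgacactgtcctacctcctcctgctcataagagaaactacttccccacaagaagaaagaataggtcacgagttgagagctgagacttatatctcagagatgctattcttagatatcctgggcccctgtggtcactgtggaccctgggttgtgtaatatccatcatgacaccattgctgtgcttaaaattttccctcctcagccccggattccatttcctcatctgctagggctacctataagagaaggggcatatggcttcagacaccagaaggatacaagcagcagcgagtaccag
Bcl2a1b and Bcl2a1a each held a pair of PU.1 cores that share 1 base, and an AP-1 motif upstream of them. Shifted by 44 bases, their windows were identical at 254 of 256 positions. Mmp12 held 1 PU.1 core on the opposite strand, Cybb 1 AP-1 motif and Ccl3 neither. In Cybb, Bcl2a1b and Bcl2a1a the AP-1 match had A at its centre, not C or G. Among genes tested that had a promoter in the table, the PU.1 core was found in 2054 of 15691 (13.1%), in 86 of 327 rises (26.3%) and in 8 of 88 falls (9.09%). Of the 36 rises of at least 3, 27 had a promoter and 12 of those (44.4%) held the core. The AP-1 motif was found in 1141 of 15691 (7.27%), in 35 of the 327 rises (10.7%), in 8 of the 88 falls (9.09%) and in 7 of the 27 (25.9%). Bcl2a1b and Bcl2a1a, with nearly identical windows, each count among the 27, the 12 and the 7. Of 33 called ribosomal protein genes with a promoter, a family described further on, 8 (24.2%) held the PU.1 core and 2 (6.06%) the AP-1 motif. Over all 27025 promoters in the table the shares were 13.5% and 7.93%. A match is a description of these letters and not a bound site, and the AP-1 shares count matches with any centre base.

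Receptors that recognise debris and dying cells were among the rises. Of 23 measured phagocytic and scavenger receptor genes, 7 rose and none fell, with a median of 0.40. Trem2, the microglial lipid receptor, went from 5.25, 4.78 and 4.63 to 8.07, 9.22 and 8.31, a rise of 3.65, and Tyrobp, its signalling adaptor, from 5.39, 4.88 and 4.91 to 8.85, 10.11 and 9.21. Cd14 (3.91), Itgam (2.65), Itgax (2.41), Stab1 (1.90) and Itgb2 (1.69) also rose. All of these encode myeloid receptors, their adaptors or integrins, Itgax was dim at 0 weeks, and in each the highest 12-week array was replicate 2. The engulfment genes that astrocytes are known for did not pass in either direction: Megf10 was at -0.66, Mertk at -0.42 and Mfge8, the bridging protein, at -0.77. Counts with single arrays left out ran from 3 rises, without replicate 2 of either group, to 7, and were 4 without replicate 1 of the 0-week group. Falls numbered 1 without replicate 3 of the 0-week group and 2 without replicate 1 of the 12-week group.

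Fc receptors bind antibody-coated particles and signal through kinases and phosphatases. Of 13 measured genes of this kind, 7 rose and none fell, and the median of 1.85 was the highest of the 30 functional lists. Fcgr3, an activating receptor, went from 6.63, 5.75 and 6.24 to 9.77, 10.64 and 9.90, and the inhibitory Fcgr2b rose by 3.02 (adjusted p = 0.00184). Fcer1g (2.81), the shared gamma chain, Inpp5d (2.75), the phosphatase SHIP1, Blnk (2.57), Ptpn6 (1.95) and Fcrls (1.85) followed, while Syk was at 0.20 and Fgr at 0.16. Both activating and inhibitory members were thus among those that rose. With the second array of either group left out the count was 3.

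Among the 30 functional lists, Toll-like receptor and inflammasome genes had the most calls, with 11 of 20 higher, none lower and a median of 1.71. Tlr7, the endosomal receptor for single-stranded RNA, rose from 5.86, 5.06 and 4.95 to 8.48, 9.52 and 9.12 (3.75). Tlr13 (2.91), Tlr9 (1.99), Tlr2 (1.76) and Tlr1 (1.67) rose too, all but Tlr2 from dim 0-week levels, as did Ly86 (4.27) and Cd180 (2.13), which encode a receptor pair related to the lipopolysaccharide receptor. Tlr4 itself was at 0.69 and Tlr3 at -0.66, both short of the threshold. The sensor gene Nlrp3 (2.43), the adaptor gene Pycard (2.14), the protease gene Casp1 (1.82) and the substrate gene Il1b (3.99) of one inflammasome all rose. Il18, whose product is cleaved by the same protease, was at -0.45. The count was 5 without replicate 2 of the 12-week group, and 6 without replicate 1 or 2 of the 0-week group.

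Chemokines and cytokines rose in part. Of 23 chemokine and chemokine receptor genes, 4 rose: Ccl3, Cxcl16 (2.59), Cx3cr1 (1.82), the fractalkine receptor of microglia, and Cxcr4 (1.06). Ccl2 was at 0.81 and Cxcl10 at 0.35, neither past the threshold. Among 22 cytokine and TNF family genes 8 rose, led by Il1a (3.03), Cd86 (2.77), a costimulatory ligand, Tnfaip3 (2.55), an inhibitor of NF-kappaB signalling, and Tnf (2.54). Il1a went from 2.83, 3.29 and 2.85 to 5.02, 7.11 and 5.92, and Tnf from 3.63, 4.10 and 3.66 to 6.03, 7.22 and 5.75. Il1a was dim at 0 weeks, and in both genes the 12-week values spread over more than 1 unit without touching those of 0 weeks. Receptor genes for IL-6 (Il6ra, 1.80), IL-10 (Il10ra, 1.71) and IL-13 (Il13ra1, 1.16) rose as well, while the ligand genes Il6 (0.10) and Il10 (-0.09) did not pass. The cytokine count was 0 without replicate 2 of the 12-week group, 3 without its replicate 3, and 1, 1 and 5 without 0-week replicates 1, 2 and 3. The chemokine count was 2 without 0-week replicate 1, 0-week replicate 2 or 12-week replicate 2.

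Complement genes rose in 5 of 16 cases, against 2.11% of all genes, with a median of 0.32, and none fell. The 3 chains of C1q, which start the classical pathway and come mainly from microglia in brain, rose together: C1qa went from 7.05, 6.35 and 6.58 to 9.96, 11.05 and 10.34, C1qb rose by 3.37 and C1qc by 2.99. C3ar1, the receptor for C3a, and C4b (1.37) were the other members. C4b is the one whose highest 12-week array was not replicate 2. The alternative pathway gene Cfb was at -0.11 and the regulator Clu, an astrocyte product, at -0.17. The count was 3 without replicate 2 of the 12-week group.

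Antigen presentation genes rose in 7 of 17 cases, with a median of 0.98. H2-DMb1 (2.41) and H2-DMa (1.85), which load peptides onto class II molecules, were followed by B2m (2.12), the light chain of class I, H2-T23 (1.63), Psmb8 (1.60), H2-Ab1 (1.15) and H2-Eb1 (1.12). B2m went from 7.94, 8.28 and 8.62 to 10.05, 10.66 and 10.50. H2-T23 went from 5.56, 5.27 and 5.30 to 7.04, 6.85 and 7.13, and was the 1 of these genes that did not have replicate 2 as its highest 12-week array. It was also the 1 that held with any array left out, and the count was 1 without replicate 2 of the 12-week group, 2 without replicate 2 of the 0-week group and 3 without replicate 1 of the 0-week or replicate 3 of the 12-week group. Ciita, the class II regulator, was at -0.17. Interferon response genes were positive in 22 of 22 cases, but with a median of 0.46 and 3 calls: Usp18 (1.57), Ifit1 (1.14) and Irf8 (0.94), of which Ifit1 was dim. In limma fits without replicate 1 or 2 of the 0-week group, or 2 or 3 of the 12-week group, 0 passed, against 1 without the remaining 0-week array and 5 without the remaining 12-week array.

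Genes of the phagosome and lysosome passed the threshold in a few members. Besides Cybb, the oxidase subunit gene Cyba (2.01) and Rac2 (3.01), the GTPase of the same complex, rose, and so did Gpx1 (1.57), a peroxidase that removes hydrogen peroxide. The oxidant defence genes of the same list that respond to NRF2 did not pass, with Hmox1 at 0.47, Nqo1 at -0.05, Gclm at -0.20 and Srxn1 at -0.54. Cathepsin genes led 4 calls among 22 lysosomal genes. Of the 22, 20 had a positive difference, with a median of 0.58. In 13 the groups did not overlap with 12 weeks higher, against 10.8% of all genes. Ctss, the cathepsin of microglia, went from 7.02, 5.92 and 6.67 to 9.41, 10.16 and 10.04 (3.33, adjusted p = 0.000726), and Ctsh (2.43), Ctsc (1.69) and Man2b1 (1.56) rose with it. Lamp1 (0.05) and Psap (-0.02), which are widely expressed, lay below that median. In each of these 8 calls replicate 2 was the highest 12-week array, and without it each list had 2 calls in place of 4. The lysosomal count was also 2 without replicate 1 or 2 of the 0-week group.

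Genes of lipid handling moved both ways. Of 17 measured, 4 rose: Gpnmb (2.61), a glycoprotein of lipid-laden phagocytes, Lgals3 (1.93), the galectin that binds damaged lysosomes, Mylip (1.38), which degrades the LDL receptor, and Apoe (0.73), the main lipoprotein of brain. Apoe stood at 11.12, 11.07 and 11.11 at 0 weeks and at 11.63, 12.02 and 11.84 at 12 weeks, a small difference beside a narrow 0-week spread. Npc1, which moves cholesterol out of the lysosome, fell by 0.78 (adjusted p = 0.0331). The cholesterol exporters Abca1 (0.49) and Abcg1 (0.53) and the droplet protein Plin2 (0.71) did not pass. Gpnmb and Lgals3 held, and the other 3 did not: Apoe and Mylip each passed in 1 of the 6 fits and Npc1 in 0. The count of rises was 2 without any 1 array of the 0-week group or replicate 2 of the 12-week group.

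Surface and adhesion receptors of myeloid cells rose as well. Of 20 purinergic, sphingosine and other microglial receptor genes 6 rose, led by Lilrb4a (3.50), an inhibitory receptor, Ptafr (2.77), the platelet-activating factor receptor, Gpr34 (2.43) and Siglech (2.15). Of 22 integrin, tetraspanin and adhesion genes 5 rose, with Cd37 (2.84), Cd53 (2.42), Selplg (2.34) and Cd84 (2.04) in front, and a pair fell, Itgb4 (-1.56) and Vcam1 (-0.77). Itgb4 went from 6.86, 7.47 and 6.69 to 6.39, 5.07 and 4.87. Its 12-week replicate 1 lay close to the 0-week values, and the call was lost without replicate 2 or 3 of that group or replicate 1 or 2 of the 0-week group. The receptor count was 1 without replicate 2 of the 12-week group, 2 without replicate 2 of the 0-week group and 3 without its replicate 1. The adhesion rises numbered 0 without replicate 2 of either group, 2 without 0-week replicate 1 or 3 and 3 without replicate 3 of the 12-week group, and no fit kept both falls. Symbols of 2 other families, looked up after their values were seen, were Slamf, with 6 of 9 members higher, and Ms4a, with 4 of 18. The Slamf count was 1 without 0-week replicate 1 or 2 or 12-week replicate 2 and 3 without 12-week replicate 3, and the Ms4a count was 2 without 12-week replicate 2.

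Transcription factors of the myeloid lineage rose in 6 of 21 cases. Spi1 went from 5.34, 4.91 and 4.67 to 8.11, 9.34 and 8.07, a rise of 3.53, and Ikzf1 (2.56), Runx1 (1.90), Atf3 (1.68), Mef2c (1.25) and Irf8 (0.94) followed. Sall1, which marks resident microglia, was at 0.12. Of 20 immediate early genes 6 rose: Junb (2.38), Zfp36 (1.76), Fosb (1.75), Egr2 (1.57), Egr1 (1.31) and Btg2 (1.23). Junb stood at 6.49, 6.10 and 6.86 at 0 weeks and at 8.70, 9.44 and 8.45 at 12 weeks, and Fos was at 1.09 without passing. Such genes respond within minutes to handling as well as to signals in tissue, and whether handling differed between the groups was not tested. The immediate early count was 2 without replicate 2 of either group, and that of the lineage factors was 2 without replicate 2 of either group or replicate 1 of the 0-week group.

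**Figure D4:**
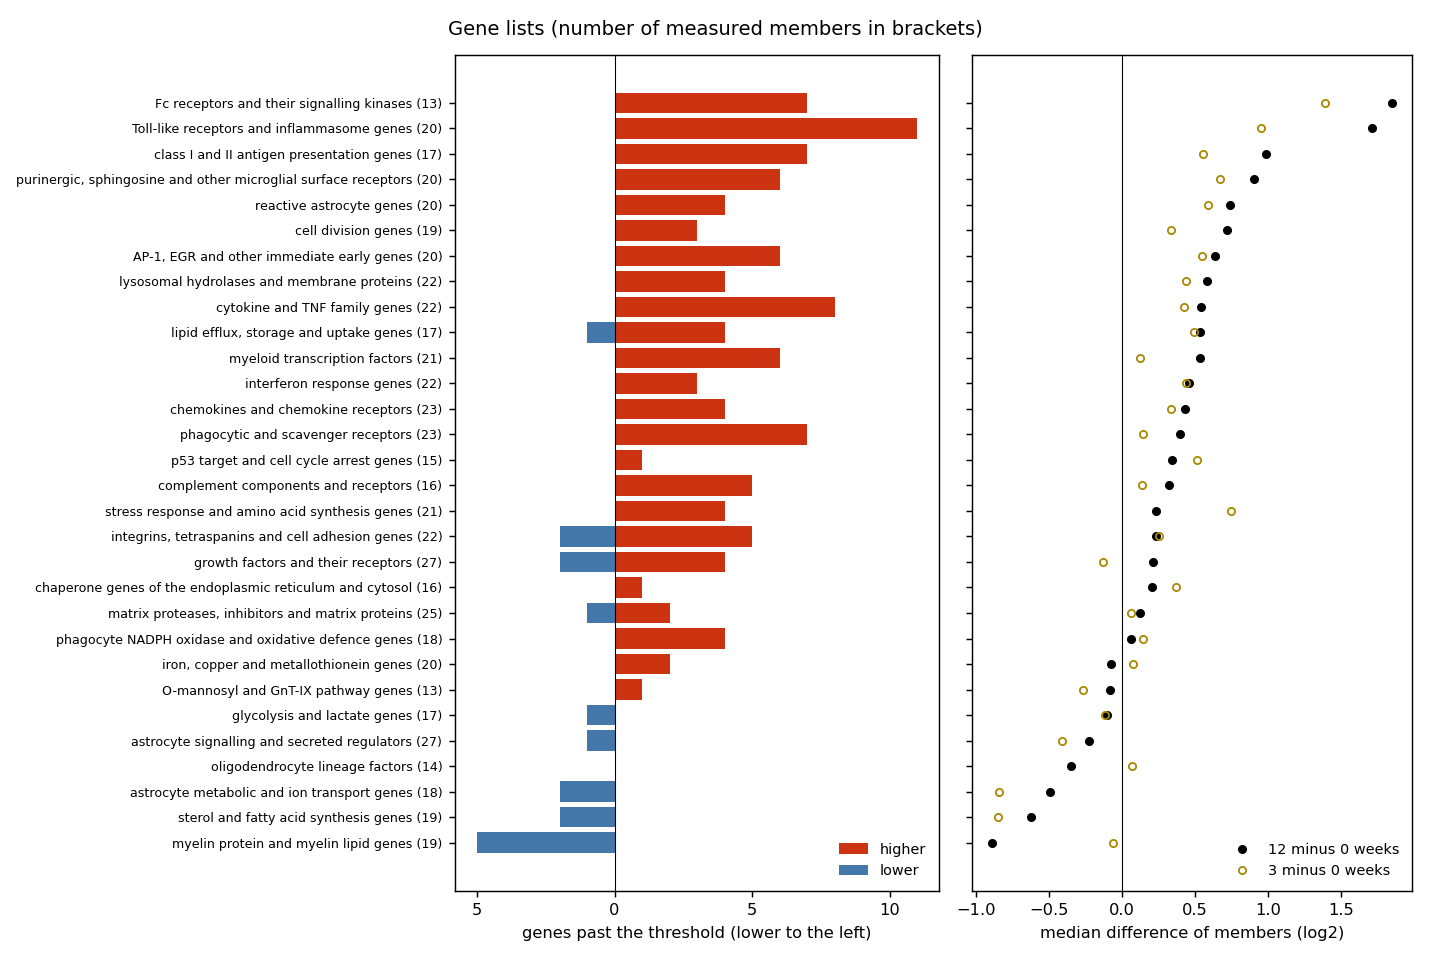
Left, number of genes past the threshold in each of 30 functional lists, higher to the right and lower to the left, with the measured members in brackets. Right, median log2 difference of all measured members, 12 minus 0 weeks as filled circles and 3 minus 0 weeks as open circles, which share their 0-week arrays; Fc receptor genes have the highest 12-week median (1.85) and myelin genes the lowest (-0.89).

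Reactive astrocyte genes were led by a pair of large changes. Serpina3n, a secreted protease inhibitor, went from 6.39, 6.12 and 5.81 to 8.60, 8.86 and 9.11, and Gfap, the astrocyte intermediate filament, from 6.55, 6.21 and 5.90 to 8.17, 8.31 and 9.02. In both, replicate 3 was the highest 12-week array, unlike the microglial genes. Of the 20 genes of the list 4 rose, the others being Hspb1 (1.15), a small heat shock protein, and Cp (1.02), the ferroxidase ceruloplasmin, and 19 of 20 had a positive difference, with a median of 0.74. Cp went from 6.35, 6.79 and 6.73 to 7.54, 7.71 and 7.68. Lcn2 (1.28), Cd44 (1.11), Vim (0.89) and Timp1 (0.75) did not pass. Serpina3n held, while Gfap did not pass when replicate 2 or 3 of either group was left out. The list had 1 call without replicate 2 of the 12-week group and 2 without its replicate 3 or replicate 1 or 3 of the 0-week group.

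The genes of resting astrocytes were lower or did not pass. Of 18 measured transport and metabolic genes, Slc7a10 (-1.17), the exchanger of small neutral amino acids, and Gja1 (-0.92), connexin 43, fell and none rose, with a median of -0.50. Slc7a10 went from 10.32, 10.05 and 9.86 to 9.17, 8.53 and 9.01. Slc1a3 itself, the antigen of the selection, was at 8.84, 8.19 and 8.01 at 0 weeks and at 7.24, 7.05 and 7.61 at 12 weeks, groups that did not overlap but whose difference of -1.05 did not pass (adjusted p = 0.0545). Slc1a2, the main glutamate transporter, was at -0.29 and Aqp4, the water channel, at -0.51. Both calls were lost without any 1 array of the 0-week group or replicate 2 of the 12-week group, and 1 was lost without either other 12-week array. Among 27 signalling genes of astrocytes 1 passed, Gli3 (-0.77), a factor of the hedgehog pathway, and Fzd2 (-1.22) and Chrdl1 (-0.79) did not. Gli3 passed in 1 of the 6 fits with an array left out.

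Amino acid and stress response genes rose in 4 of 21 cases. Asns, asparagine synthetase, went from 6.49, 6.30 and 7.05 to 8.73, 8.27 and 8.63 (1.93), and Nupr1 (1.70), Atf3 (1.68) and Ddit3 (1.18), the factor CHOP, rose too. Asns and Nupr1 held, and neither had its highest 12-week value in replicate 2. Enzymes of serine synthesis did not pass, with Psat1 at -0.54 and Phgdh at 0.00. The stress count was 2 without replicate 1 or 2 of the 0-week group or replicate 2 of the 12-week group. Of 15 measured p53 target genes 1 rose, Cdkn1a (2.13), the gene of the p21 protein that halts the cell cycle. It stood at 9.02, 9.29 and 6.54 at 0 weeks and at 10.74, 9.95 and 10.54 at 12 weeks, with 1 low 0-week array, and passed in 2 of the 6 fits, those without 0-week replicate 2 or 3. Chaperone genes had 1 call of 16, Hspb1, which no fit with an array left out retained.

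Cell division genes rose in 3 of 19 cases: Pcna (0.99), the replication clamp, Aurkb (0.93), a mitotic kinase, and Bub1 (0.84), a spindle checkpoint kinase. Bub1 went from 3.25, 2.78 and 3.04 to 3.90, 3.87 and 3.82, and was dim at 0 weeks. A total of 18 of 19 members had a positive difference, with a median of 0.72, among them Mki67 (0.98) and Cdk1 (1.11), which did not pass. None of the 3 calls held, and the count was 0 without replicate 1 or 2 of either group.

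Growth factors and matrix genes gave few calls. Igf1 went from 6.11, 5.79 and 5.93 to 7.82, 9.03 and 8.19 (2.40), and Csf1r (2.97), the receptor that microglia need to survive, Tgfb1 (1.64) and Tgfbr2 (1.04) rose with it among 27 genes. Both ligands of that receptor, Csf1 (-0.02) and Il34 (0.16), were near 0. Gdf10 (-1.55), a TGF-beta family ligand, fell from 6.90, 6.30 and 5.52 to 5.12, 3.67 and 5.28, and Igfbp2 (-1.28), which binds insulin-like growth factors, fell too. The Gdf10 groups lay close to each other. Of 25 matrix genes, Mmp12 and Timp2 (0.82), a metalloproteinase inhibitor, rose and Adamts4 (-1.32), a proteoglycan-cutting protease, fell. Iron, copper and metallothionein genes had 2 calls in 20, Slc11a1 (3.28), a metal transporter of the phagosome, and Cp, while the copper carriers Atp7a (0.66), Slc31a1 (0.22) and Ccs (-0.24) and the metallothioneins Mt1 (-0.13) and Mt2 (-0.15) did not pass. Without replicate 1 of the 0-week group or replicate 2 of either group, the growth factor list had 2 rises and 0 falls, and without replicate 3 of the 12-week group it had 1 fall. In the same 4 fits the matrix list had 1 rise and 0 falls, and the iron and copper list had 1 call without replicate 1 of the 0-week or replicate 2 of the 12-week group.

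Genes of myelin-forming cells were among the falls. Of 19 measured myelin protein and lipid genes, 5 fell, against 0.523% of all genes, and none rose. A negative difference was seen in 18, with a median of -0.89. Carns1, carnosine synthase, went from 7.86, 8.16 and 7.84 to 6.88, 6.36 and 5.91. Fa2h, which hydroxylates the fatty acids of myelin lipids, went from 10.49, 10.42 and 9.99 to 9.50, 8.71 and 8.26, and Gjb1, connexin 32, from 9.94, 9.67 and 9.57 to 8.63, 8.62 and 8.45. None of these groups overlapped, although replicate 1 was the highest 12-week array of each. Ppp1r14a (-1.49) and Mag (-0.93), the myelin-associated glycoprotein, were the other calls. Mbp, the myelin basic protein gene, was at 10.01, 10.32 and 9.66 against 10.51, 10.25 and 9.55, and its groups overlapped (0.11, adjusted p = 0.906). Mog was at -1.03 and Cnp at -0.56, neither past the threshold. The myelin count ran from 0, without replicate 2 of either group, to 7, without replicate 1 of the 12-week group, and was 1 without replicate 1 of the 0-week or replicate 3 of the 12-week group.

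Other large falls lay outside that list. Sez6l2 went from 10.79, 11.01 and 10.19 to 9.66, 9.04 and 8.85, and Plekhh1 from 10.51, 10.41 and 9.55 to 9.40, 8.55 and 8.56. In Plekhh1 the lowest 0-week array and the highest 12-week array lay close together. Rab33a (-1.45), a small GTPase, Car14 (-1.43), a carbonic anhydrase, Srcin1 (-1.36) and Synj2 (-1.29), an inositol phosphatase, also fell. Gpt (-1.27), alanine aminotransferase, went from 7.63, 7.53 and 7.15 to 6.35, 5.80 and 6.35, and was the 1 named fall that passed with any array left out. Oligodendrocyte lineage factors gave 0 calls in 14 (limma, 4 at an unadjusted p under 0.05), with Olig2 at -0.20, Sox10 at -0.23 and Myrf at -0.49, and 0 of the 14 passed with any 1 array left out.

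Differences from 0 weeks at 3 and at 12 weeks are set side by side here. The 3-week values of Plekhh1 were 10.15, 10.19 and 10.17 and those of Synj2 were 7.05, 7.29 and 7.84, with differences from 0 weeks of 0.01 and 0.00, and Sez6l2 was at -0.15 and Fa2h at -0.31. None of these 4 genes passed the direct test of 12 against 3 weeks (limma, adjusted p from 0.0874 for Synj2 and Plekhh1 to 0.154 for Fa2h). Carns1 was at -1.68 after 3 weeks and -1.57 after 12, and Gpt at -1.11 and -1.27. The median of the myelin list was -0.06 at 3 weeks and -0.89 at 12, while that of the astrocyte transport list was -0.85 and -0.50. Both comparisons share their 0-week arrays.

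Sterol and fatty acid synthesis genes had a negative difference in 19 of 19 cases, with a median of -0.62. A pair passed the threshold, Sqle (-0.88), squalene epoxidase, and Dhcr7 (-0.78), the last enzyme of one route to cholesterol. Dhcr7 went from 9.15, 9.31 and 9.07 to 8.54, 8.21 and 8.44. Mvd (-1.04) and Acaca (-0.92) had larger differences with larger errors and did not pass. The count was 0 without replicate 1 or 2 of the 0-week group or replicate 2 of the 12-week group, and 1 without replicate 1 of the 12-week group. Among 17 glycolysis and lactate genes Hk1 (-1.41), the hexokinase of brain, fell from 5.80, 5.65 and 5.44 to 4.30, 4.66 and 3.71, and Pfkp (-1.50), whose 0-week values ran from 8.12 to 10.31, did not pass. Hk1 did not pass when replicate 1 or 2 of the 0-week group or replicate 3 of the 12-week group was left out. The list of O-mannosyl and GnT-IX pathway genes holds Mgat5b, which encodes the GnT-IX enzyme that the knockout lacks. It had 1 call in 13, the galectin gene Lgals3, and no other member passed. Mgat5b was at 5.72, 5.57 and 5.74 at 0 weeks and at 5.96, 5.88 and 5.57 at 12 weeks (0.13, adjusted p = 0.845).

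Genes of the cytosolic ribosome rose in 41 of 56 cases. This family was looked up by symbol after its members had been seen among the calls. Of the 56 measured genes for its proteins none fell, 56 had a positive difference, and 55 had groups that did not overlap with 12 weeks higher, against 10.8% of all genes. The median difference was 0.85 and the range 0.21 to 1.42. Rplp1, a stalk protein, went from 8.78, 9.03 and 9.29 to 10.31, 10.60 and 10.45 (1.42, SE 0.244, adjusted p = 0.00796), Rps9 rose by 1.38 and Rpl35a by 1.34. The mean over the 56 genes was 8.59, 8.74 and 8.70 at 0 weeks, 9.63, 9.08 and 9.37 at 3 weeks and 9.39, 9.67 and 9.53 at 12 weeks, so the 12-week arrays stood close together and clear of the 0-week arrays. The median was 0.69 at 3 weeks, and none of the 56 genes passed between 12 and 3 weeks (limma, 0 at an unadjusted p under 0.05).

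The counts of other families, also taken by symbol, are given beside it, with no test of the difference between families. Of 76 mitochondrial ribosomal protein genes none passed in limma (6 at an unadjusted p under 0.05) and the median was 0.04. None of 48 genes with initiation factor symbols, 36 complex I genes or 18 cytochrome c oxidase genes passed in limma (10, 3 and 2 at an unadjusted p under 0.05). Genes with elongation factor symbols rose in 4 of 13 cases, Eef1b2 (1.37), Eef1g (0.93), Eef1d (0.82) and Eef1a1 (0.64), which encode the complex that brings aminoacyl-tRNA to the ribosome. Eef2 (0.79) did not pass. The 13 also hold genes of enzymes that modify these factors, such as Eef1akmt1 and Eef2k. Likewise the 48 hold the kinase gene Eif2ak1 and the inhibitor gene Eif4ebp1. The elongation count was 0 without replicate 1 or 2 of the 0-week group or replicate 2 of the 12-week group. It was 2 without replicate 3 of the 12-week group. Of 22 proteasome genes 3 rose, Psmb8 (1.60), Psme1 (1.12) and Psme2 (1.04), subunits that interferon induces, and 0 of 22 passed (limma) without any 1 of the 0-week arrays or 12-week replicate 2 or 3. Ribosomal protein genes have many near-identical pseudogenes that probes may not separate. In 38 of the 41 the highest arrays were replicate 2 at 12 weeks and replicate 1 at 3 weeks, as for microglial markers, and whether the cells that bring those markers carry this signal was not tested. The count was 0 (limma) when a change of at least 1.5-fold was required, 2 without replicate 2 of the 12-week group, 19 without its replicate 3 and 8 without 0-week replicate 1 or 2, while the median stayed between 0.78 and 0.92 in the 6 fits.

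**Figure D5:**
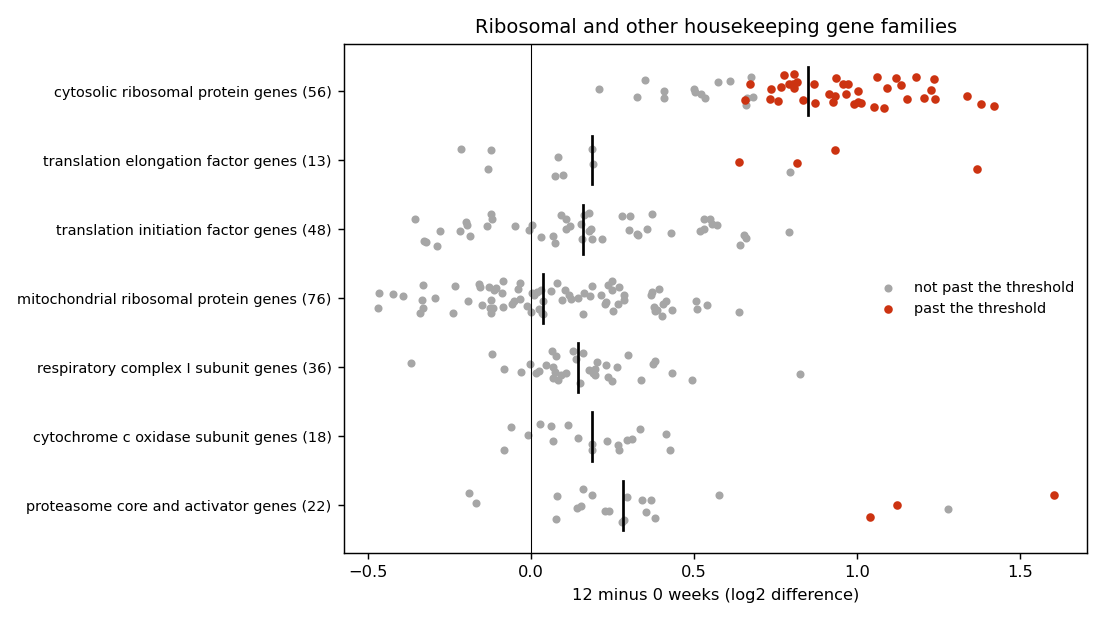
Log2 difference between 12 and 0 weeks (horizontal axis) for each gene of 7 families taken by symbol (vertical axis, measured genes in brackets, points spread vertically for legibility). Red points passed the threshold, grey points did not, and the black bar is the median; the cytosolic ribosomal protein genes lie between 0.21 and 1.42 and the mitochondrial ones have a median of 0.04.

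A total of 129 of the 412 rises did not have their highest arrays where the microglial markers had them, 74 of them with a rise of at least 1. Besides Serpina3n, Gfap, Asns and Nupr1 they included Syt4, a synaptotagmin, which went from 5.54, 5.15 and 5.29 to 7.10, 7.52 and 8.00 (2.21, adjusted p = 0.000726) and held. Clec2d, a lectin-like ligand, went from 4.56, 4.49 and 4.67 to 6.21, 5.89 and 5.97 (1.45, adjusted p = 0.000726) and held too. Both had tight 0-week values. Slc15a3 (3.73), a lysosomal peptide transporter, Tent5a (2.10), P3h2 (1.95), Tac1 (1.85), the substance P precursor, and Xdh (1.65), xanthine dehydrogenase, are named here after their values were seen. P3h2 and Tac1 did have their highest 12-week value in replicate 2, and differed from the marker order at 3 weeks alone. Slc15a3 had 12-week values of 9.66, 9.65 and 8.55, with replicates 1 and 2 nearly level.

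Set against 3 weeks directly, 12 weeks differed in 16 genes (0.082%), 5 higher (0.0256%) and 11 lower (0.0564%). The 12-week arrays are the same as above. Slamf7, a receptor of lymphoid and myeloid cells, was at 2.48, 2.53 and 2.64 at 0 weeks, at 3.35, 2.52 and 3.22 at 3 weeks and at 4.35, 4.93 and 4.21 at 12 weeks. Atp6v0d2, a proton pump subunit of osteoclasts and macrophages, was at 3.26, 3.55 and 3.66, then 3.81, 3.13 and 3.22, then 4.37, 5.12 and 5.30. In both genes the 12-week arrays stood above all 6 earlier ones, and both were dim at 0 weeks. Klrb1c, the NK1.1 receptor, reached 3.24, 3.62 and 4.30 after 12 weeks, around the lower quartile of the arrays. Gjb1 and Rffl, an E3 ubiquitin ligase, were lower at 12 weeks than at either earlier time: Rffl was at 8.69, 8.81 and 8.42, then 9.04, 8.90 and 9.30, then 8.07, 7.80 and 7.50. No microglial marker and no gene of the reactive astrocyte list passed this test (limma, 6 of 15 and 3 of 20 at an unadjusted p under 0.05). The 3-week microglial means differed among themselves by more than 2 units. The count was 146 without replicate 1 of the 3-week group, 4 without its replicate 2 and 0 without its replicate 3 (limma, 1751 at an unadjusted p under 0.05), and 2 and 1 without replicates 2 and 3 of the 12-week group.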

How the data were processed

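RNA of GLAST-selected white matter cells from mice was measured on 12 arrays in 4 groups of 3. Per the labels' protocols, total RNA was labelled with a 3' IVT Pico kit. Per the submitters' processing notes the authors used Affymetrix Expression Console 1.4 and RMA, and the deposited values lie on a log2 scale. RMA as usually run brings arrays to a like distribution, and here the array medians still ranged from 5.38 to 5.45. On a log2 array scale, changes of dim genes can be understated. The table held 22206 transcript clusters. Of these, 19572 had 1 symbol, all matched to RefSeq (GRCm38.p6) by Entrez identifier, and 2634 without a symbol were left out. Where a gene had more than 1 cluster (55 genes), the brightest cluster on average stood for it. This gave 19505 genes, none removed for being dim. No columns were left unused.

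The test was that of limma 3.58.1, run in R 4.3.3 (two-sided, 1 mean per group, 12 arrays, 8 residual degrees of freedom), with Benjamini-Hochberg adjustment over all genes and a threshold of 0.05. Errors are standard errors (SE) of that fit. The number of arrays limits the precision. On simulated data for this comparison, with 19505 genes, the test recovered 60 of 100 genes changed by a log2 of 1 and 98 of 100 changed by 2, with 13 false calls in 171. The simulated errors were independent between genes. Shifts that many genes share on the same array were not simulated, so these figures do not cover them.

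Named genes were Slc1a3, Gfap and Mgat5b, the 15 largest rises and falls and the 10 smallest p-values among called genes whose groups did not overlap, up to 4 calls per list in each direction or, under 2 calls, the 2 smallest p, and every gene called between 12 and 3 weeks. Other list members are quoted for context. The 30 functional and 15 marker lists held 725 genes, 669 of them measured. The members, lists and rule were chosen with earlier results of these data known, and the lists are described by counts and medians, without a set test. Promoters are those of the 5 largest rises in the RefSeq table, 300 bases each. Figures were drawn with matplotlib 3.10.9.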

Additional observations from a re-analysis of the deposited data

Results flagged for a closer look

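The 16 genes below differed between 12 and 3 weeks in a direct test of those groups (limma, adjusted p from 0.0199 to 0.0492), so that their change from 0 weeks was not the same at both times. Values are log2 differences, 12 minus 3 weeks. The largest was Nrsn2, a vesicle protein gene of neurons, at -2.22: it was 2.54 above 0 weeks at 3 weeks and 0.32 above at 12 weeks. Usp29 (-1.57) and Peg10 (-1.72), which are imprinted genes, Eda2r (-1.63), a p53 target of the TNF receptor family, and Slc32a1 (-1.62), the vesicular GABA transporter, showed the same course, with 12-week differences from 0 weeks between -0.25 and 0.70 that did not pass. Bpifc (-1.84) and Tmem74 (-1.77) were also highest at 3 weeks. Ppfibp2 (-1.25), Prox1 (-1.28), Gjb1 (-1.69) and Rffl (-1.29) stood above 0 weeks at 3 weeks and below it at 12 weeks. Prex2 (1.41) and Rpe65 (1.55), the retinoid isomerase, were low at 3 weeks and closer to 0-week values at 12 weeks. Atp6v0d2 (1.54), Slamf7 (1.47) and Klrb1c (1.43) were highest at 12 weeks, with Atp6v0d2 and Slamf7 dim at 0 weeks. The groups of 3 arrays are too small for a test of single outlying arrays.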

How the results depend on the processing

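The 514 calls between 12 and 0 weeks became 919 with array weights (640 higher, 279 lower) and 56, all higher, when a change of at least 1.5-fold was required. With arrays left out singly they ran from 77, without replicate 2 of the 12-week group, to 504, and were 144, 105 and 276 without replicates 1 and 2 of the 0-week group and replicate 3 of the 12-week group. They stayed between 442 and 689 under another normalization, centring, a mean over clusters, another variance model, a filter on the dimmest 30% of genes, the 6 arrays alone and the replicate block. Centring each array on its median moved the share of higher calls from 80.2% to 70.4% (336 higher, 141 lower) and the median of all genes from -0.013 to -0.067. The 16 calls between 12 and 3 weeks became 33 with array weights, 30 with trend and robust variance, 9 with the arrays of those groups alone, 9 without the dimmest genes and 0 with the minimum fold (limma, where 124 had an unadjusted p under 0.05), and with arrays left out singly they ran from 0 (1751 at an unadjusted p under 0.05) to 146. They were 2 and 1 without replicates 2 and 3 of the 12-week group, 4 without replicate 2 of the 3-week group, 0 without its replicate 3 and 146 without its replicate 1. The replicate block gave 442 and 15 calls. Same-numbered samples correlated at 0.216, -0.036 and 0.186 in their deviations from the group means between 12 and 0 weeks. Between 12 and 3 weeks the values were -0.28, -0.174 and 0.185. Deviations within groups of 3 arrays cannot settle whether the numbers pair the arrays. Of 112 named calls, 37 rises and 0 of 24 falls passed in all 15 alternatives, and 40 with the minimum fold left aside, Gpt the 1 fall among them. Bpifc, uncalled at 0.05 between 12 and 0 weeks, changed sign to -0.0033 when arrays were centred, to -0.0867 without replicate 1 of the 0-week group and to -0.128 without replicate 2 of the 12-week group, its range with single arrays left out being -0.128 to 0.237. Nrsn2 was at -0.0117 without replicate 2 of the 0-week group and ran up to 0.483. The causes were not tested.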
